A study of Mus musculus with 35 samples.

Results

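Propylthiouracil (PTU) exposure was compared with no exposure in the testis of Akt1 heterozygous mice at postnatal day 15, using the 3 arrays titled as exposed and the 3 titled as unexposed, 6 of the 35 arrays of the series. Akt1 is a kinase downstream of growth factor receptors and PI3 kinase, and the study crossed 3 Akt1 genotypes (Akt1+/+, Akt1+/- and Akt1-/-) with PTU or no exposure in C57BL6 males at days 15 and 25. The series title places the exposure in the neonatal period and the question in the maintenance of the blood-testis barrier. Both heterozygous groups were Akt1+/-, and the groups differ by the label PTU alone; its dose and route, and which part of Akt1 the mutant allele lacks, are not given in the sources used here. Total RNA of testis was hybridised to 1 array per mouse, so the replicates were separate mice, and with 3 of them in a group the number of arrays limits the precision. The exposed and unexposed groups of wild type and homozygous mice at day 15, and of heterozygous mice at day 25, were used only to set the heterozygous values against others.

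PTU blocks thyroid peroxidase and so lowers thyroid hormone. In the young testis thyroid hormone acts through thyroid hormone receptor alpha on Sertoli cells, the somatic cells that nurse germ cells, ending their proliferation and bringing on their maturation, and it promotes the formation of adult Leydig cells, the steroid-producing cells between the tubules. Neonatal hypothyroidism delays both processes, and the first wave of spermatogenesis depends on the Sertoli cells completing theirs.

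Of 16710 genes tested, 95 passed an adjusted p of 0.05 in limma's test with Benjamini-Hochberg adjustment, which is 0.569% of them; 32 rose with PTU (0.192%) and 63 fell (0.377%). At an unadjusted p under 0.05 the count was 2264, and the median difference over all genes was 0.00299 on the log2 scale. Of all genes 50.7% lay above 0. These shares of all genes are the ones to set beside the counts of the lists below. All values below are log2 intensities, and a difference is exposed minus unexposed on that scale with limma's standard error (SE). In all 95 genes the 3 exposed arrays lay wholly above or wholly below the 3 unexposed ones, which was true of 15.2% of all genes tested. The 95 were chosen by a test on these same arrays, so their separation is in part fixed by the choice and is a description only. The last genes inside the threshold were Nlgn1 (0.49, adjusted p = 0.049) and Wnt5a (0.59, adjusted p = 0.0447), and the first outside it were Sned1 (-0.46) and Klhl36 (-0.70), both at adjusted p = 0.0506.

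The count of 95 depended on single arrays. Same-numbered exposed and unexposed heterozygous arrays deviated from their group means together and were taken as paired on that ground. The titles only number the samples and do not say what a number marks. The main test, which gave the 95 genes, held no term for the number and so did not use the pairing. With that number as a block for the heterozygous arrays, an alternative chosen after seeing the data, 183 genes passed (76 rose, 107 fell) and all 95 were among them. Leaving out 1 array in turn gave 3 genes without exposed array 1, 47 without exposed array 2 and 414 without exposed array 3. Without unexposed array 1, 2 or 3 the counts were 41, 33 and 35. Only Folr2, Ppp2r2c and Trpc5os passed in all 6 of these fits. All 95 genes kept their sign in each, but with groups that do not overlap, leaving out 1 array cannot change the sign. Exposed array 3 was the one nearest to the unexposed arrays in 26 of the 32 risen genes and in 40 of the 63 fallen genes. Its median shift from the unexposed mean was 0.57 in the risen genes, against 0.89 and 0.88 in exposed arrays 1 and 2.

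The 6 arrays had medians between 7.05 and 7.09 and correlated with one another at 0.971 or more across the genes tested. Testis markers were high in them: Dazl, an RNA-binding protein of germ cells, averaged 12.45 ± 0.08 (SD, n = 3) in exposed and 12.36 ± 0.14 in unexposed arrays, and Cldn11, a Sertoli cell tight junction claudin, averaged 10.94 ± 0.22 and 11.14 ± 0.10. Transcripts of epididymis stayed dim, with Spink8 between 4.92 and 6.54. Of the other day 15 arrays, unexposed wild type arrays 2 and 3 had Spink8 at 9.38 and 7.91. Exposed homozygous array 2 had it at 8.74. Bright probe sets without a gene name split the day 15 arrays into 2 sets. Exposed arrays 1 and 2 and unexposed array 1 were in the first set, and exposed array 3 and unexposed arrays 2 and 3 in the second, so each set held both groups. With the set as a block 104 genes passed, 75 of the 95 among them. Akt1 itself stood at 8.83, 9.79 and 9.67 in the exposed and 9.52, 9.96 and 9.70 in the unexposed arrays, a difference of -0.30 ± 0.22 (SE) that did not pass (adjusted p = 0.58). The unexposed wild type arrays, at 9.34, 9.48 and 9.71, were no higher than the unexposed heterozygous ones, and since the part of Akt1 that the allele lacks is not given, this probe set does not check the genotype labels.

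Among the genes that rose were precursors of microRNAs, the short RNAs that pair through their seed with messenger RNAs and lower their output. The array carried 300 microRNA genes by 1-symbol probe sets and 168 of them were bright enough to test. Mir202 and Mir196a-1 rose, no microRNA gene fell, and the median over the 168 was 0.05. The probe sets read the microRNA gene and do not say which mature arm was made. The mature arms are shown because only Hsd17b3 rose by more than these genes; they were taken from RefSeq on GRCm38.p6 for both genes, 5′ to 3′, with the seed (bases 2 to 8) in capitals.
miR-202-5p: uUCCUAUGcauauacuucuuu
miR-202-3p: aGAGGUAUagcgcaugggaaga
miR-196a-5p: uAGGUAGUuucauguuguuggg
miR-196a-1-3p: cAACGACAucaaaccaccugau
The miR-202 arms lie on the minus strand at chr7:139957732-139957752 and chr7:139957695-139957716, and the miR-196a arms on the plus strand at chr11:96265187-96265208 and chr11:96265225-96265246. Of 1738 mature mouse microRNAs in the RefSeq table, 1 other (let-7j) carries the seed of miR-202-3p and 1 other (miR-196b-5p) that of miR-196a-5p.

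Mir202 stood at 8.72, 8.80 and 7.80 in the exposed arrays and at 6.81, 6.91 and 6.77 in the unexposed ones. The unexposed arrays were close to each other, and all exposed arrays lay above them, exposed array 3 least so. The difference was 1.61 ± 0.35 (SE), a 3.05-fold rise (limma, adjusted p = 0.0437). Mir196a-1 stood at 7.36, 7.21 and 6.34 in exposed and at 5.46, 5.85 and 5.56 in unexposed arrays, with the same array nearest. It rose by 1.35 ± 0.23 (limma, adjusted p = 0.00972). Its unexposed arrays lay near the limit of 5.56 for dim genes, where signal is close to background, so the difference may understate the change; its unexposed wild type arrays, at 5.14, 5.40 and 5.42, lay below that limit. Both also rose in wild type testis, Mir202 by 1.26 and Mir196a-1 by 1.98, and neither passed in homozygous testis, at 0.28 and 0.06. No tested gene beside them passed in the same direction. Kndc1, which encodes a brain-enriched exchange factor of Ras, lies near Mir202 in the RefSeq order but not next to it. It fell by 1.13 ± 0.18 (limma, adjusted p = 0.00708), from 7.19, 7.22 and 6.96 to 5.62, 5.86 and 6.49. Utf1, the tested gene between them, was at -0.06 (adjusted p = 0.905). Hoxb9 and Hoxb7, homeobox genes on the same side of Mir196a-1 in that order, were at 0.28 (limma, adjusted p = 0.244) and 0.16 (adjusted p = 0.671). The genes listed on its other side were not tested.

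Steroid enzyme genes rose in part. Of the 15 tested members of the Leydig cell and steroid synthesis list, 2 rose and none fell, with a median of 0.17; Insl3 and Lhcgr are not analysed here. Hsd17b3, which makes testosterone from androstenedione, had the largest rise of all genes: 10.26, 10.05 and 9.23 in the exposed arrays against 7.98, 8.37 and 8.05 in the unexposed. The difference of 1.71 ± 0.29 is 3.28-fold (limma, adjusted p = 0.00972). In bulk testis RNA, more or fewer cells of a type cannot be told apart from more or less RNA per cell, here and in all results that follow.

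Akr1c14, a 3-alpha-hydroxysteroid dehydrogenase that reduces dihydrotestosterone in immature Leydig cells, stood at 8.05, 7.92 and 7.50 with PTU and at 6.86, 6.54 and 6.48 without. It rose by 1.20 ± 0.18 (limma, adjusted p = 0.00708), with clear space between the groups. Hsd3b6, the 3-beta-hydroxysteroid dehydrogenase of adult Leydig cells, lay lower with exposure: 5.68, 6.68 and 7.82 with PTU and 10.23, 9.75 and 8.82 without. Its difference of -2.87 ± 0.64 was the largest named here in size, with no overlap of the groups, but the spread within them left it just outside the threshold (adjusted p = 0.0506, and 0.0541 with the sample number as a block). Hsd3b1, its paralog, stood at 8.04, 7.95 and 7.66 with PTU and 7.16, 7.31 and 7.44 without, a difference of 0.58 ± 0.23 that did not pass (adjusted p = 0.269). The 2 paralogs are close in sequence, and hybridisation of one to the probes of the other was not tested.

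The early steps of steroid synthesis did not separate the groups. Star, which brings cholesterol into mitochondria, ran from 8.02 to 10.25 with PTU and from 8.11 to 9.96 without (-0.19 ± 0.54, adjusted p = 0.925). Cyp17a1, which makes androgen precursors, ran from 8.04 to 11.53 and from 8.91 to 10.19 (0.29 ± 0.74, adjusted p = 0.912). Cyp11a1, the side chain cleavage enzyme, ran from 8.37 to 9.41 and from 8.10 to 9.02 (0.46 ± 0.31, adjusted p = 0.545). In all 3 genes the arrays numbered 2 were the highest of their group, exposed and unexposed alike.

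**Figure D1:**
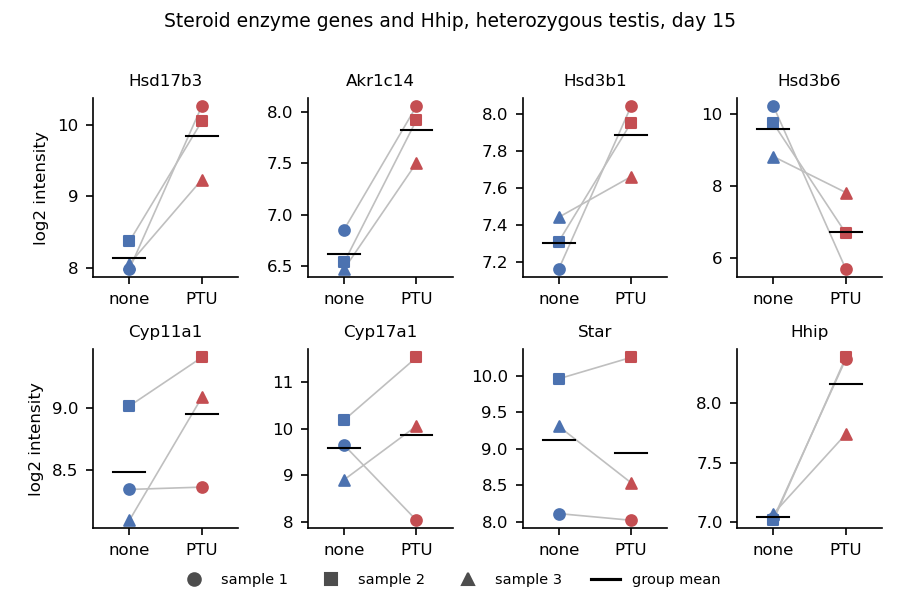
Log2 intensity of 7 steroid synthesis genes and Hhip in the 3 unexposed (none, blue) and 3 PTU-exposed (red) heterozygous arrays at day 15; symbols give the sample number, grey lines join equal numbers and black bars are group means. Hsd17b3, Akr1c14 and Hhip are higher in every exposed array, Hsd3b6 is lower in every one, and Cyp11a1, Cyp17a1 and Star overlap.

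Hedgehog signalling is the route by which Sertoli cells act on the precursors of Leydig and peritubular cells. Of 15 tested members of that list 1 rose and none fell, with a median of 0.23. Above 0 lay 14 of the 15, as did 50.7% of all genes. In 5 of the 15 all exposed arrays lay above all unexposed ones, which held for 6.61% of all genes tested. The one that rose was Hhip, an inhibitor that binds hedgehog ligands and is itself a transcriptional target of the pathway. It stood at 8.37, 8.39 and 7.74 with PTU and at 7.03, 7.02 and 7.07 without, a rise of 1.13 ± 0.16 (limma, adjusted p = 0.00484). The receptor Ptch1, also a target, was at 10.56, 10.45 and 10.23 against 9.96, 10.01 and 9.92, which did not pass (0.45 ± 0.12, adjusted p = 0.0942). The ligand Dhh was at 0.20 (adjusted p = 0.518) and the transcription factor Gli1 at 0.31 (adjusted p = 0.21).

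Of 21 tested members of the Wnt list 2 rose and none fell, with a median of 0.08. Sfrp1, a secreted protein that binds Wnts, stood at 8.29, 8.27 and 7.86 with PTU and at 7.13, 7.30 and 6.89 without, a rise of 1.04 ± 0.15 (limma, adjusted p = 0.00702). The ligand Wnt5a rose from 8.37, 8.44 and 8.35 to 9.17, 9.04 and 8.70, by 0.59 ± 0.13 (limma, adjusted p = 0.0447). Sfrp2, a relative of Sfrp1, was at 0.48 ± 0.12 and did not pass (adjusted p = 0.079).

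Rises outside the lists were named by their size or chosen from the genes that passed. Cdh11, a cadherin of mesenchymal cells, stood at 8.46, 8.66 and 8.05 with PTU and at 7.51, 7.45 and 7.32 without. It rose by 0.96 ± 0.16 (limma, adjusted p = 0.00972). Gpc3, a heparan sulfate proteoglycan at the cell surface, rose by 0.92, from 7.998, 8.41 and 8.39 to 9.31, 9.46 and 8.79. Thbs2, a matrix glycoprotein, rose by 0.75, the protocadherin Fat4 by 0.70, the collagen-binding receptor Antxr1 by 0.59 and the transcription factor Snai2 by 0.53. Lrrc17, a secreted leucine-rich repeat protein, rose by 0.94, and Ndn, which encodes necdin, by 0.72. Bex2 rose by 1.27 ± 0.26 (limma, adjusted p = 0.0327) and had all exposed arrays between 9.60 and 9.72, against 7.90, 8.87 and 8.39.

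Lipid genes changed in both directions. Lpl, the lipoprotein lipase that frees fatty acids from circulating fat, stood at 8.69, 8.62 and 7.71 with PTU and at 7.06, 7.16 and 7.19 without, and it rose by 1.21 ± 0.26 (limma, adjusted p = 0.0411). Lrp8, a receptor of apolipoprotein E, fell by 1.22 ± 0.25 (limma, adjusted p = 0.0336), from 10.46, 10.57 and 10.38 to 8.80, 9.33 and 9.60. These were the 2 of 19 tested members of the lipid list that passed, and the median of the list was -0.03.

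Genes that supply germ cells were among the falls. Bbox1, which catalyses the last step of carnitine synthesis, had the largest fall among the genes that passed: 8.65, 8.16 and 8.04 without PTU and 5.61, 5.73 and 6.39 with it. The difference was -2.37 ± 0.42 (limma, adjusted p = 0.0137), a 5.18-fold fall. Emb, which encodes embigin, a partner of monocarboxylate transporters, fell by 1.63 ± 0.32, from 9.40, 9.07 and 8.998 to 7.27, 7.32 and 7.99 (limma, adjusted p = 0.0243). The water channel Aqp8 fell by 1.17 ± 0.22, from 7.61, 7.36 and 7.34 to 6.14, 6.13 and 6.52 (limma, adjusted p = 0.0196). These 3 were the members that passed among 20 tested on the list of metabolite and water transport to germ cells. The list had a median of -0.14.

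Other transport genes fell as well. The proton exchanger Slc9a2 went from 7.89, 8.05 and 7.76 to 6.39, 6.56 and 6.75, a fall of 1.33 ± 0.21 (limma, adjusted p = 0.00708). Carbonic anhydrase 7, Car7, fell by 1.75 ± 0.27, from 9.14, 9.09 and 8.82 to 6.82, 7.04 and 7.94 (limma, adjusted p = 0.00708). The serotonin transporter Slc6a4 fell by 0.77, the amino acid transporter Slc43a2 by 0.62 and the mitochondrial citrate carrier Slc25a1 by 0.51.

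Sertoli cell genes fell in part. Tsx, an X-linked gene of Sertoli cells, was bright and even in the unexposed arrays, at 11.11, 11.20 and 11.04. With PTU it stood at 8.66, 8.70 and 9.77, a fall of 2.07 ± 0.37 (limma, adjusted p = 0.0137). Espn, an actin-bundling protein of the ectoplasmic specialisation, fell by 0.61 ± 0.13 (limma, adjusted p = 0.0384), from 8.99, 9.40 and 9.35 to 8.40, 8.69 and 8.83. They were the 2 of 18 tested mature Sertoli cell genes that passed, and the list's median was -0.12.

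Immature Sertoli cell genes had a median of 0.19, and none of 14 passed. Inhba, a subunit of activin A, stood at 8.31, 8.004 and 7.86 with PTU and at 7.38, 7.33 and 6.56 without (0.97 ± 0.22, adjusted p = 0.0509). The cell cycle gene Ccnd2 stood at 11.45, 11.52 and 10.91 against 10.70, 10.75 and 10.49 (0.65 ± 0.17, adjusted p = 0.0877). With the sample number as a block these 2 genes passed, at adjusted p = 0.0235 and 0.0445. Amh, the hormone of immature Sertoli cells, did not pass, at 8.76, 8.92 and 9.12 against 8.05, 8.75 and 8.55 (0.48 ± 0.23, adjusted p = 0.379).

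Of 24 tested blood-testis barrier genes, 1 rose and none fell, and the median was -0.01. The gene that rose was Cxadr, an adhesion protein of tight junctions, at 8.55, 8.48 and 8.12 with PTU and 7.68, 7.67 and 7.55 without (0.75 ± 0.16, limma, adjusted p = 0.0363). The claudins of the barrier did not pass, with Cldn11 at -0.20 (adjusted p = 0.484) and Cldn3 at -0.22.

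Genes of hormone and kinase signalling gave few calls. Among 11 tested androgen and FSH responsive genes 2 fell, and the median was -0.41. Corin, a serine protease that processes natriuretic peptide, fell by 1.39 ± 0.22, from 8.85, 8.73 and 8.66 to 7.02, 7.22 and 7.83 (limma, adjusted p = 0.00758). Cited4, a transcriptional coactivator, fell by 0.62 ± 0.09, from 8.55, 8.52 and 8.51 to 7.79, 7.98 and 7.94 (limma, adjusted p = 0.00484). Another member, the nuclear receptor Nr4a1, stood at 7.96, 9.70 and 7.80 against 8.64, 10.54 and 10.18 and passed only with the sample number as a block (-1.30, adjusted p = 0.193 without the block and 0.0274 with it).

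Ppp2r2c, a regulatory subunit of protein phosphatase 2A, had the smallest adjusted p of all genes. It stood at 8.38, 8.73 and 8.78 without PTU and at 7.08, 7.25 and 6.66 with it, and here exposed array 3 was the farthest from the unexposed arrays. The fall was 1.63 ± 0.16 (limma, adjusted p = 0.000174). None of the other 13 tested subunits passed, and the list's median was 0.02. None of 22 tested genes of the Akt and PI3 kinase pathway passed (median -0.04); Akt2 was at 11.01, 10.98 and 11.02 against 11.24, 11.23 and 11.17 (-0.21, adjusted p = 0.237).

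Thyroid hormone genes gave no call among 16 tested, with a median of -0.09. In 4 of the 16 all exposed arrays lay below all unexposed ones, which held for 8.62% of all genes tested. In 1 they lay above, which held for 6.61%. The response genes Klf9 and Hr were among the 4. Klf9 stood at 8.23, 8.98 and 8.86 against 9.47, 9.43 and 9.43 (-0.75 ± 0.24, adjusted p = 0.178), and Hr at 6.73, 7.06 and 7.13 against 7.25, 7.36 and 7.45 (-0.38 ± 0.10, adjusted p = 0.101). Hr passed with the sample number as a block (adjusted p = 0.0421). The receptor gene Thra was at 10.37, 10.65 and 10.49 against 9.58, 10.39 and 10.19 (0.45 ± 0.21, adjusted p = 0.374).

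Further falls were in genes outside these lists. Trpc5os, an RNA named as lying opposite Trpc5, stood at 7.22, 6.94 and 6.28 without PTU and at 4.26, 4.51 and 4.93 with it. It fell by 2.24 ± 0.27 (limma, adjusted p = 0.00127), to levels below the limit of 5.56 for dim genes. Signal there is close to background, so the difference may understate the change. Dmrtc1b, an X-linked gene with close copies beside it that the probes may not tell apart, fell by 1.45, from 8.48, 8.05 and 7.99 to 6.44, 6.40 and 7.30. The acid phosphatase Acp7 fell by 1.37, the calcium-binding annexin Anxa9 by 1.15, the kinase Mapkapk3 by 1.05 and Gfpt2, an enzyme of hexosamine synthesis, by 0.96.

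**Figure D2:**
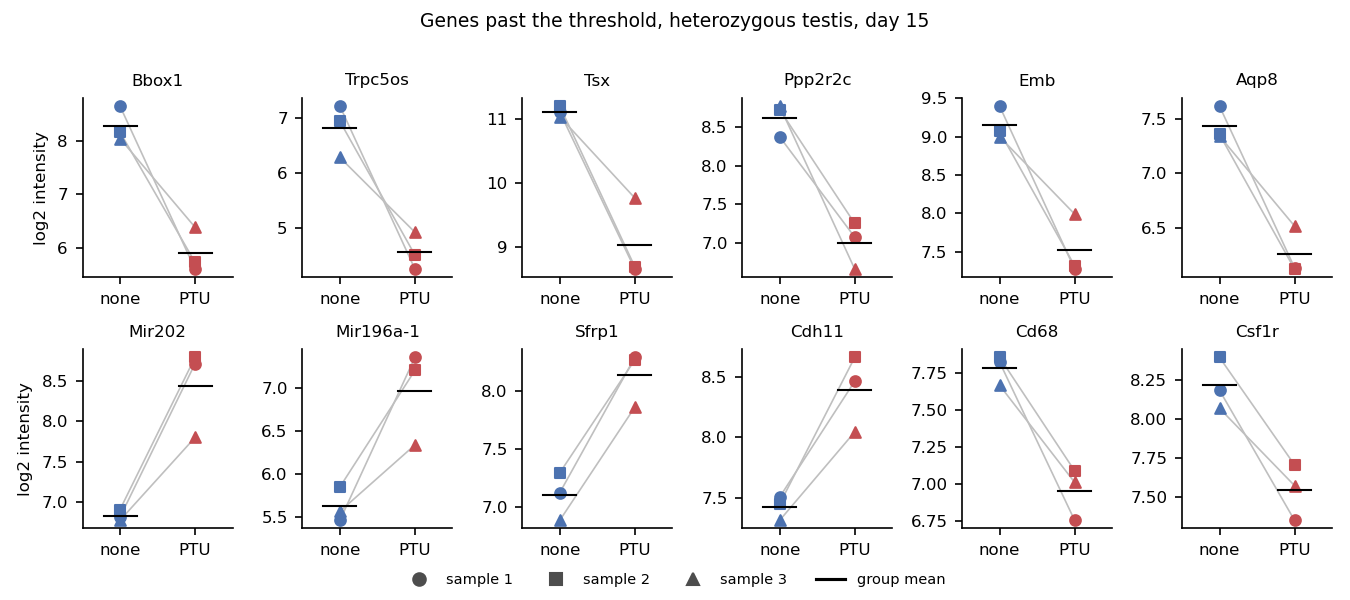
Log2 intensity of 12 genes that passed, in the 3 unexposed (none, blue) and 3 PTU-exposed (red) heterozygous arrays at day 15; symbols give the sample number, grey lines join equal numbers and black bars are group means. The groups do not overlap in any panel, and the triangle of exposed array 3 is the nearest to the unexposed arrays in most of them, with Ppp2r2c the other way round.

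Macrophage genes formed the largest group of falls. Of 22 tested members 6 fell and none rose, where 0.377% of all genes fell and 0.192% rose. Below 0 lay 21 of the 22, where 50.7% of all genes lay above 0. The median was -0.58 against 0.00299 for all genes. In 15 of the 22 all exposed arrays lay below all unexposed ones, which held for 8.62% of all genes tested. Lyz2, a lysozyme of phagocytes, fell by 1.10 ± 0.20, from 8.98, 8.86 and 8.59 to 7.19, 8.05 and 7.90 (limma, adjusted p = 0.014). Cd68, a lysosomal membrane protein, fell by 0.83 ± 0.12, from 7.82, 7.86 and 7.67 to 6.75, 7.09 and 7.01 (limma, adjusted p = 0.00484). Csf1r, the receptor for the growth factor that maintains macrophages, fell by 0.67 ± 0.11, from 8.19, 8.40 and 8.07 to 7.35, 7.71 and 7.58 (limma, adjusted p = 0.00708).

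The other members that passed were C1qb of the complement C1q complex (a fall of 0.81), the Fc receptor chain Fcer1g (0.73) and the NADPH oxidase subunit Cybb (0.72). With the sample number as a block 8 members fell, the added ones being Tyrobp (-0.47) and Cx3cr1 (-0.45). C1qa and Mrc1 did not pass but lay as low, at -0.82 (adjusted p = 0.0877) and -0.72 (adjusted p = 0.0641). Passing genes that are known in macrophages but stand on none of the lists included the folate receptor Folr2, the pore-forming protein Mpeg1, Lgmn, a lysosomal protease, and Cd300a. They were picked from the genes that passed, so they add no support to the list. In wild type and homozygous testis Folr2 was at -0.40 and -0.06, and Mpeg1 at -0.86 and -0.63. Lgmn was at -0.46 and -0.77 there, and Cd300a at -0.03 and 0.11. Lgmn was far brighter than the list mean, averaging 11.84 without PTU and 11.16 with it. Folr2 fell by 0.72 ± 0.09, from 7.09, 7.01 and 6.92 to 6.24, 6.29 and 6.32 (limma, adjusted p = 0.00127), and Mpeg1 by 1.05, from 8.99, 8.87 and 8.72 to 7.42, 7.97 and 8.03. Other members lay near 0, with Cd14 at 0.08, Cd163 at -0.06 and Itgam at -0.10. The mean of the 22 genes was 6.71, 7.05 and 6.97 in the exposed and 7.49, 7.47 and 7.34 in the unexposed arrays.

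The lists of MHC class II presentation, of lymphocytes and mast cells and of blood gave no call. None of 7 tested genes of MHC class II presentation passed (median -0.01), nor any of 4 lymphocyte and mast cell genes (0.08) or 2 blood genes (0.04). The endothelial list had all 10 genes above 0, where 50.7% of all genes lay above it, and a median of 0.13, with none passing. What part the number of macrophages in the sampled tissue had in these falls was not tested.

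**Figure D3:**
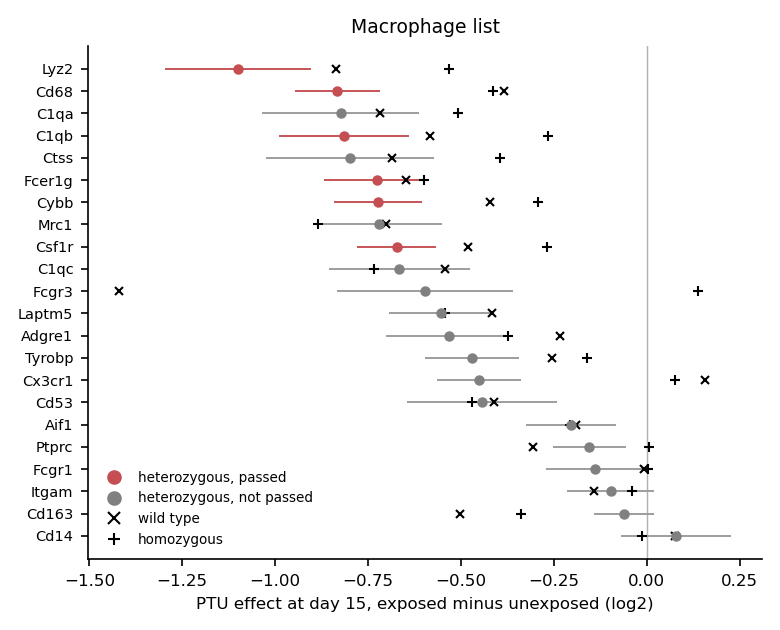
PTU effect on the 22 macrophage genes at day 15, in log2 units; circles with bars are the heterozygous difference and its SE (red where it passed, grey where it did not), and crosses and plus signs are the wild type and homozygous differences. All but Cd14 lie below 0 in heterozygous testis, and Lyz2 lies lowest at -1.10.

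Germ cell genes did not pass. None of 24 spermatogonial genes (median 0.06), 23 early meiotic genes (-0.08), 14 round spermatid genes (-0.04) or 25 genes of pachytene and later spermatocytes passed. The last list had a median of -0.74 with 21 of 25 below 0, and the list means of the groups overlapped. The mean was 8.33, 7.37 and 8.58 with PTU and 8.94, 8.38 and 8.82 without, lowest in the arrays numbered 2 of both groups. Between arrays of the same number the exposed one was the lower in 3 of 3 pairs, for the list mean and for the 2 genes given next, but no member passed with the sample number as a block either. Ldhc, the lactate dehydrogenase of spermatocytes, stood at 10.16, 8.17 and 10.39 against 11.28, 9.95 and 10.86 (-1.12 ± 0.70, adjusted p = 0.506). Adam3, a sperm surface protein, was at 6.37, 5.79 and 7.09 against 7.76, 6.79 and 7.40 (-0.90 ± 0.41, adjusted p = 0.351). None of the genes tested for proliferation (22, median 0.11), extracellular matrix (20, 0.14), peritubular myoid cells (10, 0.07), activin and AMH signalling (20, 0.18), early response and heat shock (18, -0.03) or interferon response (13, -0.19) passed, nor any of 7 epididymal (0.08) or 6 fat genes (0.02). Inhba and Nr4a1, described above, and Ccnd2 were the members of these lists that passed with the sample number as a block.

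The wild type and homozygous comparisons share no array with the heterozygous one, although all 3 share the estimate of spread. In wild type testis all 32 risen genes lay above 0 and all 63 fallen genes below 0. Of the risen genes 26 (81.2%) also rose there, where 6.53% of all genes rose, and of the fallen genes 44 (69.8%) also fell, where 8.75% of all genes fell. The median wild type difference was 0.72 in the risen and -0.56 in the fallen genes, against 0.75 and -0.70 in heterozygous testis. No difference between the 2 genotypes passed in these 95 genes. Aqp8 came closest: it fell by 2.60 in wild type testis, from 8.997, 8.98 and 8.94 to 7.12, 5.84 and 6.16 (interaction, limma, adjusted p = 0.051).

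In homozygous testis the falls recurred and the rises mostly did not pass. Of the 63 fallen genes 59 lay below 0 and 39 (61.9%) fell, where 4.37% of all genes fell, with a median of -0.55. Of the 32 risen genes 20 lay above 0 and 12 below, with a median of 0.07. Only 2 of them, Hsd17b3 (1.53) and Akr1c14 (0.88), rose, where 0.586% of all genes rose, and 1, Golim4, fell by 0.40. Cdh11 stood at 8.13, 8.40 and 8.46 in exposed and 8.22, 8.36 and 8.36 in unexposed homozygous arrays (0.02, adjusted p = 0.961). Sfrp1 was at 7.98, 8.17 and 8.23 against 7.82, 8.09 and 8.20 (0.09, adjusted p = 0.759), and Hhip at 7.77, 8.04 and 8.08 against 7.81, 7.70 and 7.59 (0.26, adjusted p = 0.346).

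A test of the difference itself did not pass for any gene between heterozygous and homozygous testis (0 of 16710, 0%, with 2822 at an unadjusted p under 0.05 and a smallest adjusted p of 0.109). All 32 risen genes had the larger effect in heterozygous testis, by a median of 0.64. These genes were chosen for their rise in heterozygous testis, so a larger effect there is in part fixed by the choice and is given as a description only. Without heterozygous exposed array 3 the count of differences was 201 of all genes; leaving out any of the other 11 arrays of these groups left it at 0. With the sample number as a block it was 1.

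The levels behind these differences were set side by side in all 6 groups. In the 32 risen genes the median level was 7.19 in wild type, 7.25 in heterozygous and 8.02 in homozygous unexposed testis. With PTU it was 7.98, 8.28 and 8.16 in the same order. The unexposed homozygous testis thus stood near the exposed levels of the other genotypes. In 30 of the 32 genes all 3 unexposed homozygous arrays lay above all 3 unexposed wild type arrays, groups that the heterozygous comparison did not use; the same was true of 28.2% of all genes tested. Bex2 was one example, at 9.29, 8.58 and 9.32 in homozygous and 7.72, 8.06 and 7.79 in wild type unexposed arrays. In the 63 fallen genes the median was 8.67, 8.52 and 8.15 in unexposed wild type, heterozygous and homozygous testis and 7.78, 7.53 and 7.57 in the exposed groups.

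**Figure D4:**
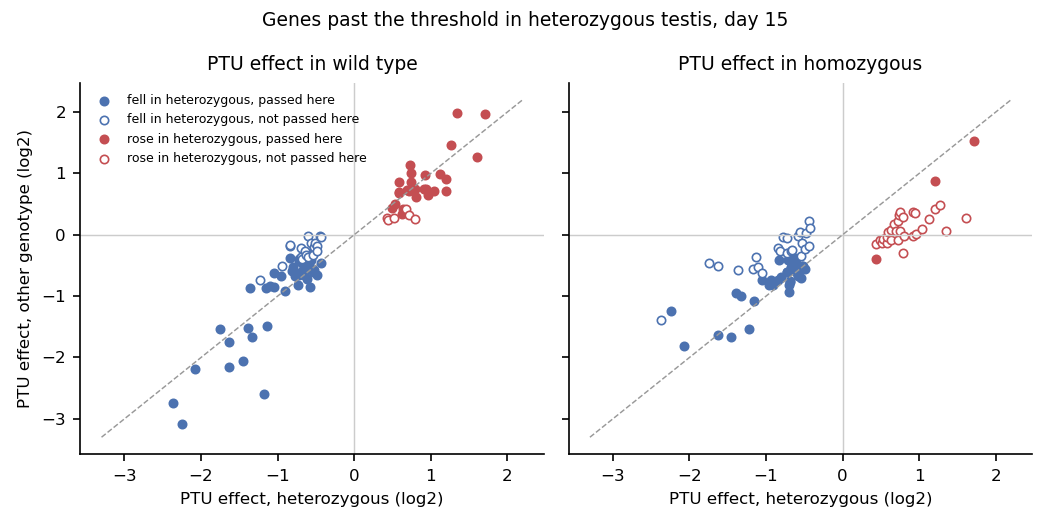
PTU effect on the 95 genes that passed in heterozygous testis (horizontal axis, log2) against the effect on the same genes in wild type (left) and homozygous testis (right), with filled circles for genes that passed there and a dashed line of equal effects. In wild type testis all 95 keep their direction, while in homozygous testis most of the risen genes (red) lie near 0 and 59 of 63 fallen genes (blue) stay below it.

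The PTU effect differed between heterozygous and wild type testis in 75 other genes (0.449% of those tested). For 74 of them the difference was above 0, and all 74 fell in wild type testis while none passed in heterozygous testis. Their median, with the exception Mid1 included, was -0.28 in heterozygous and -1.64 in wild type testis. Abca14, a transporter of the ATP-binding cassette family, had the smallest p, at -0.17 in heterozygous testis and 1.92 above the wild type value (adjusted p = 0.00086). Adam3, Ccna1 and Pgk2, on the list of pachytene and later spermatocytes, were among the 74. The array means of the 75 genes lay between 7.60 and 8.16 in unexposed wild type testis and between 6.22 and 6.59 in unexposed heterozygous testis, so the unexposed heterozygous level lay below the unexposed wild type one. The 75 genes were chosen by a test that uses these same arrays. The falls in wild type testis and the order of these levels are thus in part fixed by the choice and are given as a description only. With PTU they lay between 5.98 and 6.37 in heterozygous and between 5.93 and 6.38 in wild type testis.

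The macrophage and spermatocyte lists differed in the same view. The macrophage median was -0.42 in wild type (12 of 22 fell) and -0.32 in homozygous testis (6 of 22 fell). The spermatocyte median was -1.67 in wild type testis (18 of 25 fell), -0.74 in heterozygous and 0.68 in homozygous testis (none passed in the last 2). The difference between genotypes was tested per gene only.

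**Figure D5:**
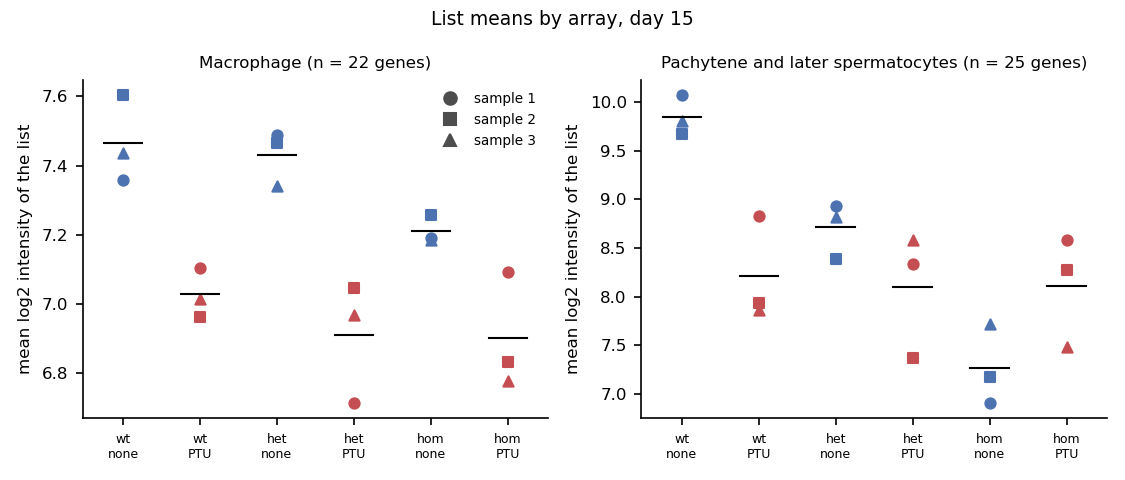
Mean log2 intensity of the 22 macrophage genes (left) and of the 25 genes of pachytene and later spermatocytes (right) in each of the 18 arrays of day 15, by genotype (wt, wild type; het, heterozygous; hom, homozygous) and exposure (blue, none; red, PTU); black bars are group means. Macrophage means are lower with PTU, without overlap, in every genotype, while spermatocyte means of the heterozygous groups overlap between 8.38 and 8.58.

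At day 25 the heterozygous arrays were of another type and were fitted by themselves, so only differences were compared. There 3042 of 16305 genes passed (18.7%; 11.5% rose and 7.2% fell), with a median of 0.06. Of the genes that rose at day 15, 26 were tested and 19 lay above 0, with 5 rising and 1 falling. Wnt5a rose by 0.53 at day 25, Ndn by 0.75, Antxr1 by 0.66, Asb2 by 0.32 and Golim4 by 0.46, whereas Smco4 fell by 0.61. Hsd17b3 was at -1.22 and did not pass (limma, adjusted p = 0.0696). Of the genes that fell at day 15, 58 were tested, 18 lay below 0 and none fell. The netrin Ntn4 rose by 0.66 at day 25, Lgmn by 0.46, Gfpt2 by 0.44, Frmpd1 by 0.39 and Smox by 0.31. The medians were 0.23 for the risen and 0.13 for the fallen genes. Array type and age cannot be told apart in this contrast of days.

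Promoters of the changed genes were searched for AGGTCA, the hexamer bound by thyroid hormone receptor and by other nuclear receptors, on both strands of the window from 250 bases before to 50 after the start in RefSeq on GRCm38.p6. It was found in 1 of 25 promoters of 20 risen genes (4%) and in 10 of 78 promoters of 58 fallen genes (12.8%), and in 5340 of all 32851 promoters (16.3%). The direct repeat with 4 bases between, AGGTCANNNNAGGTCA, was in 5 of all promoters (0.0152%) and in none of these. The promoter of Tsx is shown as that of the largest fall among the Sertoli cell genes, plus strand, with the hexamer in capitals, its first base at -176 from the start (chrX:103414217-103414516).
Tsx promoter: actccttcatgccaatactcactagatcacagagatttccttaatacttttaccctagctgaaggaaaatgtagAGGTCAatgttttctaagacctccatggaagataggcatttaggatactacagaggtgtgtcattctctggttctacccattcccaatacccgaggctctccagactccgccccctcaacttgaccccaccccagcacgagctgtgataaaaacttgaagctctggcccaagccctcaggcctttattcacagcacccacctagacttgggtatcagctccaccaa
A match is a description of the letters in this window. Binding was not measured in this study.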

How the data were processed

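The authors deposited log2 intensities of probe sets made with RMA, per the submitters' processing notes, which give no version. They ranged from 2.19 to 14.9 at day 15 and were not rescaled. Gene symbols came from the platform annotation: of 35556 probe sets at day 15, 21789 had 1 symbol, 1621 several and 12146 none, and only those with 1 symbol were named. The brightest probe set stood for its gene, and genes above the 25th percentile (5.56) in at least 2 arrays were tested, 16710 of 19938 at day 15 and 16305 of 18194 at day 25.

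Days 15 and 25 were fitted separately on group means with limma 3.58.1 in R 4.3.3 (lmFit, contrasts.fit, eBayes), with Benjamini-Hochberg adjustment over all genes tested and a threshold of 0.05. At day 15 the 18 arrays of 6 groups shared 1 estimate of spread, with 12 residual degrees of freedom. With 3 arrays against 3, an exact permutation test of a single gene could not reach the threshold, so none was run.

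Same-numbered exposed and unexposed heterozygous arrays had residual correlations of 0.391 to 0.444 across genes, all above 0.1. They were taken as paired by the sample numbers in the titles. This rests on the data, and the labels do not say what a number marks. The main fit held no block for the number, so its SE and p do not use the pairing. Values with the block come from alternative fits. The correlations were 0.0355 to 0.275 in wild type and -0.252 to -0.207 in homozygous mice.

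Genes named in full were Akt1 and Akt2, the 15 largest rises and 15 largest falls without overlap of arrays, members of 29 lists that passed (or the 4 with the smallest p), a set of testis markers, and up to 8 genes with the smallest p for a difference between genotypes; any gene that passed could be named. Genes named beside these, such as the neighbours of the microRNA genes, were chosen after their values were seen. The members and lists were chosen with earlier results of these data known. Alternatives covered the filter, probe sets, quantile normalization, array weights, arrays with epididymal signal, sample number and array set as blocks, heterozygous arrays alone, and leaving out each array. An exposed homozygous array of day 25 is not analysed here. Figures were drawn with matplotlib 3.10.9.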

Additional observations from a re-analysis of the deposited data

Results flagged for a closer look

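The PTU effect differed between heterozygous and wild type testis at day 15 in 75 genes by the interaction test (limma, adjusted p under 0.05), 74 with a value above 0 and 1, Mid1, below. The differences with the smallest p were Abca14 (1.92 on the log2 scale), CK137956 (2.10), Ccdc110 (1.70), Slc6a21 (2.62), Hyal6 (2.40), Cmtm2b (3.04), Dhx58 (1.04) and Ppp3r2 (2.51), each from a fall in wild type testis and a heterozygous value that did not pass.

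In 3 of the 95 genes that passed in heterozygous testis, the exposed and unexposed homozygous arrays differed the opposite way, without overlap in either genotype. They were Golim4 (heterozygous minus homozygous 0.83), Tbxas1 (-0.66) and Pard3 (0.60). In 60 of the 95 the homozygous arrays separated the same way. In wild type testis 82 separated the same way and 0 the opposite way. The share of all genes that separate in wild type or homozygous testis, the same way or the opposite way, was not counted. Without that share these counts are a description only. The interaction test did not pass for Golim4, Tbxas1 or Pard3 in the fit on all arrays.

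Outside the named genes, 4 probe sets without a gene symbol passed in heterozygous testis (1 rose, 3 fell, of 9186) in a fit over all probe sets together. In that fit 32 of 18307 probe sets with 1 symbol passed, 10 that rose and 22 that fell.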

How the results depend on the processing

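Every one of the 95 genes kept its sign in each of the up to 19 alternatives in which it was tested, but none passed in all of them. The groups do not overlap in these genes, so leaving out arrays or fitting within an array set could not change a sign. The kept signs in those fits are therefore no separate support. Of 3842 values of named genes under an alternative, 3095 stayed on their side of the threshold, 682 lost the call, 65 gained it and 0 reversed. The count of 95 became 499 with array weights (all 95 among them), 49 without the arrays with epididymal signal (45 shared), 31 in the heterozygous arrays alone, and 1 and 3 within the first and second array set. When the sample number entered as a replicate block it was 127 over all 18 arrays, 183 for the heterozygous arrays in the fit on all 18 (an alternative chosen after seeing the data) and 507 in the heterozygous arrays alone; 90, 95 and 91 of the 95 genes were among those passing in these fits. Leaving out 1 array gave 3 to 414. The count was 88 without a filter, 127 with the filter at the 50th percentile and 100 with every probe set that had 1 symbol. It was 110 after quantile normalization and 104 with the array set as a block (75 shared). In the fit over all probe sets together, named or not, only 10 of 18307 probe sets with 1 symbol rose and 22 fell. The 75 genes that differed from wild type became 652 with array weights (491 above 0, 161 below), 48 without the arrays with epididymal signal, 130 with the replicate block over all 18 arrays (107 with the heterozygous block), and 22 to 150 when 1 array was left out. The 0 genes that differed from homozygous became 1 with the heterozygous replicate block and 0 to 201 when 1 array was left out. Leave-one-out counts ran from 1116 to 2688 for wild type (2553 with all arrays), 56 to 1598 for homozygous (828) and 873 to 3620 for heterozygous at day 25 (3042). The causes of these shifts were not tested, and fits that left arrays out also had fewer of them. Dim genes near the filter limit what could be measured, as signal there is close to background.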
